A study of Mus musculus with 10 samples.

Results

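The genes described here are 10 markers of resident arterial macrophages, Cd68, Adgre1, Csf1r, Mrc1, Cd163, Lyve1, Lyz2, Timd4, Folr2 and Mertk. They were chosen by gene symbol from the 55453 symbols of the deposited count table, and all 10 were found there. RNA was sequenced from whole aortae of male C57BL/6 mice, 5 young mice aged 14.5 weeks and 5 old mice aged 92.5 weeks, with 1 library per mouse and no treatment, transgene or deletion named in the labels. The question of the study was which aortic transcripts differ with age. Smooth muscle markers were abundant in every library, with Acta2 at 390587 ± 31099 normalized counts in the young mice and 348817 ± 33917 in the old ones (SD over 5 mice). Lyz2, the macrophage marker with the highest counts, was at 3732 ± 521 and 5451 ± 1898. The macrophage genes were thus read in a tissue that holds other cells as well. In such bulk samples, fewer cells of a type and less RNA per cell cannot be told apart.

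Resident macrophages of the artery sit mainly in the adventitia, where they take up dying cells and debris and are kept alive by signaling through Csf1r. A subset that carries the hyaluronan receptor Lyve1 together with Mrc1, Cd163, Folr2 and often Timd4 is known to lie along vessels, and part of it is seeded before birth. Cd68, Adgre1, Csf1r, Lyz2 and Mertk are shared by wider groups of macrophages, and in the case of Lyz2 also by monocytes and neutrophils.

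The libraries held between 19640401 and 22886153 counts each. The 10 markers together took 509 to 597 CPM (counts scaled to a common library total) in the young and 615 to 1022 CPM in the old aortae, and the highest value belonged to old mouse 3, the library labelled replicate 3 of the old group. Old mouse 3 recurs in the results below, and the values without it are given where they matter. Old mouse 2 stood apart in another respect, with 11.0% of its counts on mitochondrial genes against 4.50% to 6.51% in the other 9 libraries. The part of either library in the marker results was not tested beyond leaving it out.

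Cd68 and Adgre1 were higher in old aortae, and the other 8 markers did not pass the test. Cd68 encodes a glycoprotein of lysosomes and endosomes, and its level was 1.77-fold higher in old aortae (95% interval 1.33 to 2.36). Adgre1, which encodes the surface receptor F4/80, was 1.74-fold higher (95% interval 1.29 to 2.34). Thus 2 of 10 markers were called higher and 0 lower, beside 6.48% and 4.99% of the 14614 genes tested (edgeR quasi-likelihood test, Benjamini-Hochberg adjusted p below 0.05). All 10 markers passed the filter on low counts and all 10 had a positive log2 fold change, with a median of 0.52, while 50.8% of all tested genes were positive and their median was 0.0034. DESeq2 also called none of the 10 lower, but it called 5 higher, namely Cd68, Adgre1, Csf1r, Mrc1 and Cd163. At an unadjusted p below 0.05, 6 of 10 markers were higher and none was lower, beside 14.1% of all tested genes that were higher at that threshold.

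The level of the markers differed widely in both groups. On the scale of CPM per kilobase of exonic length, Lyz2, the lysozyme of phagocytes, was the most abundant at 130 ± 20.4 in young and 194 ± 67.8 in old aortae. Mertk came next at 36.8 ± 8.85 in young and 38.4 ± 5.42 in old aortae, above the 7 markers that followed. Lyve1, Csf1r, Folr2 and Mrc1 had young means of 12.1, 11.1, 9.72 and 8.55 on this scale, and their ranges over the 5 young mice overlapped, so that their order was not resolved. Cd68 at 6.32, Cd163 at 6.02 and Adgre1 at 4.85 lay below them in young aortae, again with overlapping ranges. Timd4 was the rarest at 0.99 ± 0.49 in young and 1.11 ± 0.48 in old aortae. The order was the same in old aortae, except that Csf1r at 15.9 stood above Lyve1 at 12.9, a change of places within the spread of both genes. 

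**Figure D1:**
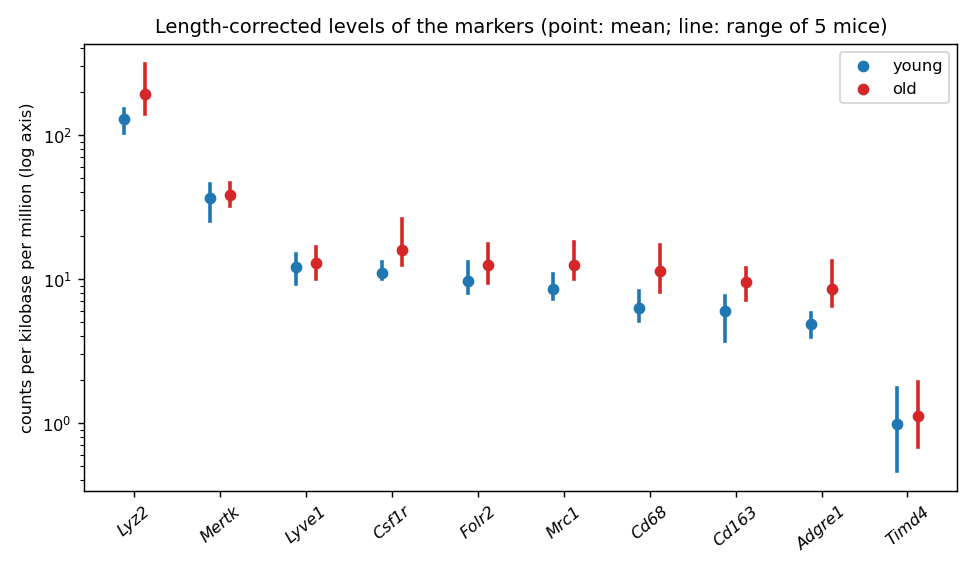
Levels of the 10 markers in CPM per kilobase of exonic length (log axis), with the group mean as a point and the range of 5 mice as a line, young in blue and old in red. Lyz2 lies highest (means 130 and 194), Mertk follows (36.8 and 38.4), Timd4 lies lowest (0.99 and 1.11), and the 7 markers between them have overlapping neighbors.

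The start regions of the markers are shown because many macrophage genes are known targets of the transcription factor PU.1, which binds purine-rich ETS sites. RefSeq promoters of GRCm38.p6 were at hand for 7 of the 10 genes, with 8 entries since Folr2 has a pair of them, and the 250 bases before each start were searched on both strands for GAGGAAGT and for the shorter GAGGAA and GGAAGT, both of which are contained in it. The long form occurred in none of the 8 member promoters and in 2.44% of all 32851 promoters. GAGGAA occurred in 2 of 8, those of Cd68 and Mrc1, beside 23.3% of all promoters. GGAAGT occurred in 4 of the 8, those of Mrc1, Lyz2, Timd4 and 1 of the Folr2 entries, beside 19.7% of all promoters. Printed 5′ to 3′ on the strand of the gene are Cd68 as a marker that was higher in old aortae (chr11:69666171-69666420, minus strand), Mrc1 as the marker with the most matches (chr2:14229164-14229413, plus strand) and Mertk as the marker with the smallest difference between ages (chr2:128698665-128698914, plus strand), with capitals marking GAGGAA or GGAAGT on either strand.
Cd68: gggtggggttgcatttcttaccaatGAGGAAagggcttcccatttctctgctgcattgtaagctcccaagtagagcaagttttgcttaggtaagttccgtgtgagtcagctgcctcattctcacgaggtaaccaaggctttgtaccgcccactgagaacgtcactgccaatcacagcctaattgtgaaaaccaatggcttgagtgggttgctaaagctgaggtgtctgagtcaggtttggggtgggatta
Mrc1: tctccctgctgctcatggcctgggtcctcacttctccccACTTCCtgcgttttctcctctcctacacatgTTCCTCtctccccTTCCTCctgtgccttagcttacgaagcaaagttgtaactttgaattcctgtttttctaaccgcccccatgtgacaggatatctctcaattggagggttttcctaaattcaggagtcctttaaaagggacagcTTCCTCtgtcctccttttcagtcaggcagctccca
Mertk: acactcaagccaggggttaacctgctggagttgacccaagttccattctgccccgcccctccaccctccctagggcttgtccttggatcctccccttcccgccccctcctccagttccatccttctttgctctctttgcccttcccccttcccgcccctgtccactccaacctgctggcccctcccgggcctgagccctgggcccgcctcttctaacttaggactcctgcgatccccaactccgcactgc
Mrc1 held 3 copies of GAGGAA and 1 of GGAAGT, Cd68 held 1 of GAGGAA, and the Mertk window held neither. A match describes the letters in these windows only, and no binding was measured.

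Among the general macrophage markers, Cd68 separated the ages completely. In GRCm38 the gene lies on chromosome 11 (69664213 to 69666153, minus strand). Its normalized counts, that is counts divided by the DESeq2 size factor of the library, were 216.7, 165.0, 186.4, 155.5 and 142.4 in young mice 1 to 5 and 222.9, 270.2, 464.1, 315.3 and 252.8 in old mice 1 to 5. Every old mouse lay above every young mouse, which 5.37% of all tested genes also did, and old mouse 1 was only slightly above young mouse 1. The mean rose from 173 ± 29.1 to 305 ± 95.0 (log2 fold change 0.83, SE 0.19, edgeR adjusted p = 0.0155). Without old mouse 3 the log2 fold change was 0.62 with an edgeR adjusted p of 0.0158.

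Adgre1 lies on chromosome 17 (57358691 to 57483527, plus strand). Normalized counts were 381.3, 331.1, 409.8, 308.0 and 285.9 in young mice and 533.6, 450.0, 922.7, 603.5 and 456.0 in old mice. As for Cd68, the groups did not overlap and old mouse 3 was far above the other 4 old mice. The mean rose from 343 ± 51.4 to 593 ± 195 (log2 fold change 0.80, SE 0.20, edgeR adjusted p = 0.0235), and the log2 fold change was 0.58 without old mouse 3 (edgeR adjusted p = 0.0114). The call was lost when young mouse 2, 4 or 5 was left out (log2 fold changes 0.78, 0.76 and 0.73, edgeR adjusted p = 0.0592, 0.0633 and 0.0580) and when no low-count filter was used (0.79, edgeR adjusted p = 0.0813).

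**Figure D2:**
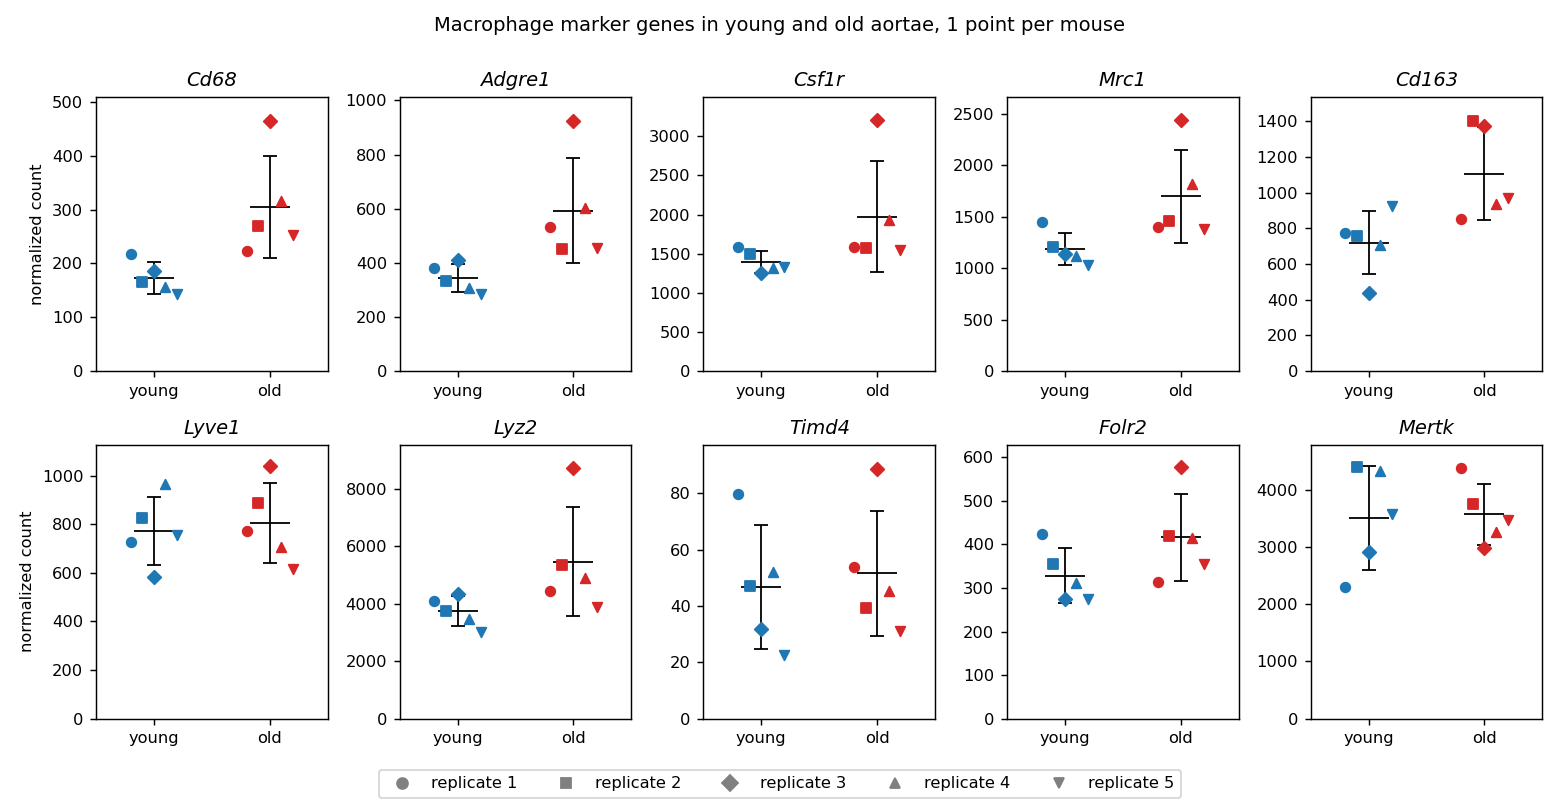
Normalized counts of each marker in each mouse (linear axes from 0), young in blue and old in red, with 1 symbol shape per replicate number and bars for the group mean and SD (n = 5). Old and young points are apart for Cd68 (142.4 to 216.7 against 222.9 to 464.1) and Adgre1 (285.9 to 409.8 against 450.0 to 922.7) and overlap for the other 8 markers, and old mouse 3 is the highest old point in 8 of 10 panels.

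Csf1r, the receptor for the growth factors CSF1 and IL-34, did not pass the test. It lies on chromosome 18 (61100598 to 61132149, plus strand), and its normalized counts were 1586, 1498, 1255, 1318 and 1327 in young mice and 1581, 1575, 3203, 1936 and 1549 in old mice. Only old mice 3 and 4 lay above the highest young mouse, and the other 3 old mice were within the young range, near its upper end. The means were 1397 ± 139 and 1969 ± 708 (log2 fold change 0.50, 95% interval 0.07 to 0.94, edgeR adjusted p = 0.132). DESeq2 called it higher (adjusted p = 0.0417), while the log2 fold change without old mouse 3 was 0.26. Of its exonic length, 15.1% is overlapped by Hmgxb3 on the opposite strand.

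Lyz2 (chromosome 10, 117277331 to 117282321, minus strand) made up 32.6% of the summed normalized counts of the 10 markers. It was at 4089, 3747, 4347, 3455 and 3024 normalized counts in young mice and 4421, 5350, 8705, 4888 and 3893 in old mice. Old mouse 5 lay within the young range, and the other 4 old mice were above it. The means were 3732 ± 521 and 5451 ± 1898 (log2 fold change 0.55, 95% interval 0.10 to 1.01, edgeR adjusted p = 0.1105), and the log2 fold change without old mouse 3 was 0.32. Lyz2 shares 15.4% of its 50-base transcript windows with other genes, mainly its neighbor Lyz1, which had 60 to 230 counts per library.

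Mertk, a receptor tyrosine kinase that binds the bridging proteins Gas6 and protein S in the uptake of apoptotic cells, showed the smallest difference of the 10. Its gene lies on chromosome 2 (128698956 to 128802894, plus strand). Normalized counts were 2308, 4397, 2909, 4335 and 3581 in young mice and 4387, 3751, 2973, 3262 and 3471 in old mice. All old mice lay within the young range. The means were 3506 ± 905 and 3569 ± 539 (log2 fold change 0.03, 95% interval -0.35 to 0.42, edgeR adjusted p = 0.930). Mertk was also the marker that went against the others within the old group, since its lowest old value was in old mouse 3. In young mice its mean of 36.8 CPM per kilobase was above the 11.1 of Csf1r and the 6.32 of Cd68. The part of cells other than macrophages in the values of Mertk was not tested.

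Among the markers of the Lyve1-type subset, Mrc1 came nearest to the threshold. Mrc1 encodes the mannose receptor CD206 and lies on chromosome 2 (14229392 to 14332057, plus strand). Its normalized counts were 1446, 1207, 1143, 1121 and 1028 in young mice and 1399, 1456, 2443, 1821 and 1385 in old mice. All old mice were above 4 of the young mice, but young mouse 1 lay between old mice 1 and 2. The means were 1189 ± 157 and 1701 ± 452 (log2 fold change 0.53, 95% interval 0.17 to 0.88, edgeR adjusted p = 0.0589). Mrc1 was called higher by DESeq2 (adjusted p = 0.00977), by limma-voom with quality weights (adjusted p = 0.0246) and without young mouse 1 (log2 fold change 0.60, edgeR adjusted p = 0.0372) or old mouse 5 (0.59, edgeR adjusted p = 0.0491).

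Cd163, a scavenger receptor for complexes of hemoglobin and haptoglobin, had a larger estimate than Mrc1 but was not called either. It lies on chromosome 6 (124304656 to 124330527, plus strand), with normalized counts of 774.9, 755.7, 439.7, 704.9 and 924.2 in young mice and 855.4, 1401, 1375, 938.1 and 968.3 in old mice. Here old mouse 2 was slightly above old mouse 3, and 4 of 5 old mice exceeded all young mice. The means were 720 ± 177 and 1108 ± 260 (log2 fold change 0.63, 95% interval 0.18 to 1.08, edgeR adjusted p = 0.0708). DESeq2 called it higher (adjusted p = 0.00955).

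Lyve1 itself showed no such separation. The gene lies on chromosome 7 (110850607 to 110863239, minus strand), and its normalized counts were 725.8, 826.2, 584.3, 967.6 and 756.2 in young mice and 770.5, 889.2, 1041, 705.7 and 617.4 in old mice. Both groups covered nearly the same range, with old mouse 3 at the top and young mouse 3 at the bottom. The means were 772 ± 140 and 805 ± 165 (log2 fold change 0.07, 95% interval -0.27 to 0.41, edgeR adjusted p = 0.826), and the estimate was -0.04 without old mouse 3. Lyve1 is also made by lymphatic endothelium, whose markers are given below.

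Folr2, which encodes folate receptor beta, lies on chromosome 7 (101839988 to 101857194, minus strand). Its normalized counts were 424.3, 354.2, 274.2, 311.9 and 274.6 in young mice and 313.8, 418.4, 577.8, 415.5 and 353.9 in old mice. Young mouse 1 was above 4 of the 5 old mice. The means were 328 ± 63.2 and 416 ± 101 (log2 fold change 0.35, 95% interval -0.01 to 0.72, edgeR adjusted p = 0.202). The antisense gene Gm10602 overlaps 63.1% of the exonic length of Folr2, and since the strand setting of the counting is not stated, reads of both genes cannot be told apart.

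Timd4, a receptor for phosphatidylserine on dying cells and a marker of long-lived resident macrophages, was scarce, with 22 to 95 counts per library. It lies on chromosome 11 (46810800 to 46844332, plus strand), and its normalized counts were 79.7, 47.3, 31.9, 52.1 and 22.5 in young mice and 54.0, 39.2, 88.5, 45.3 and 31.1 in old mice. The groups overlapped almost fully, and each had 1 mouse well above the rest. The means were 46.7 ± 21.9 and 51.6 ± 22.3 (log2 fold change 0.16, 95% interval -0.59 to 0.90, edgeR adjusted p = 0.821). Its interval was the widest of the 10 markers, and the parts of low counts and of variation between mice in that width were not tested.

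**Figure D3:**
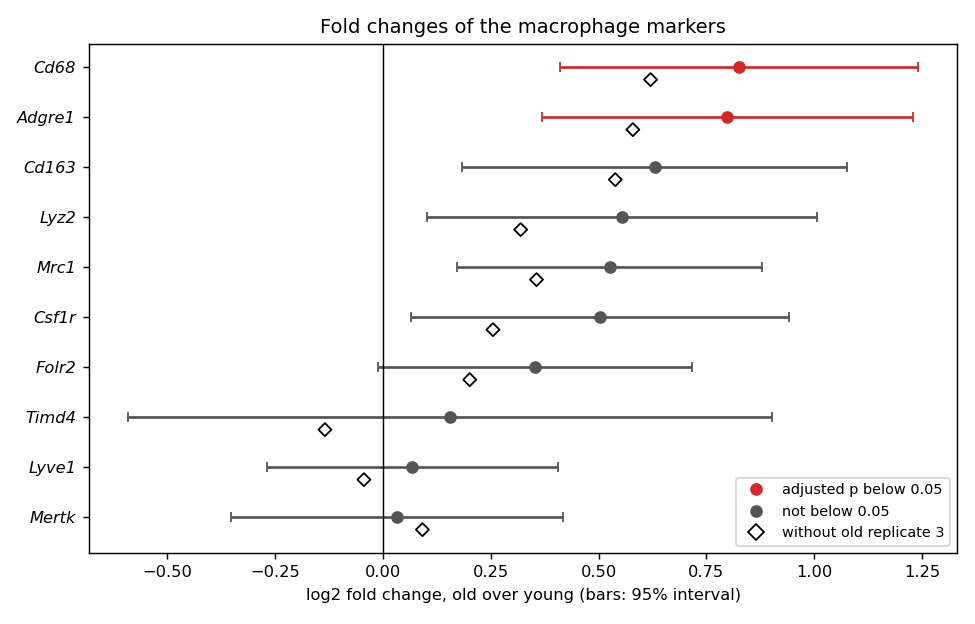
Log2 fold change of each marker, old over young, with its 95% interval (n = 5 mice per group), in red where the edgeR adjusted p was below 0.05; open diamonds give the estimate without old mouse 3. Cd68 (0.83) and Adgre1 (0.80) stand at the top, Lyve1 (0.07) and Mertk (0.03) at the bottom, and leaving out old mouse 3 lowered every estimate but that of Mertk (0.03 to 0.09).

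The markers varied together among mice of the same age, with exceptions. Old mouse 3 was the highest of the old group in 8 of 10 markers, at 2.09 times the mean of the other 4 old mice for Timd4, 1.93 for Csf1r, 1.88 for Lyz2, 1.81 for Adgre1 and 1.75 for Cd68, but at 0.80 times for Mertk. Old mouse 5 was the lowest of its group in 5 markers. In the young group, young mouse 1 was highest in 5 markers (Cd68, Csf1r, Mrc1, Timd4 and Folr2), and young mouse 5 was lowest in 5. After removal of the group means, Csf1r followed the mean level of the 10 markers most closely over the 10 mice (r = 0.95), Mrc1 (0.92) and Folr2 (0.91) came next, Cd163 was looser (0.49) and Mertk ran the other way (-0.32). Without old mouse 3 the order changed to Folr2 (0.89), Mrc1 (0.88) and Csf1r (0.83), while Adgre1 went from 0.78 to 0.44, Lyve1 from 0.71 to 0.36 and Cd163 to 0.22. Each marker is part of that mean, so that these values are a description only. Without old mouse 3 the calls of Cd68 and Adgre1 remained, and the fold changes of Lyve1 and Timd4 became slightly negative (-0.04 and -0.13).

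The Lyve1-type markers (Lyve1, Mrc1, Cd163, Folr2 and Timd4) were compared with the general markers (Cd68, Adgre1, Csf1r, Lyz2 and Mertk) within each library, as the difference of their mean log2 levels. It was -1.07, -1.30, -1.69, -1.21 and -1.31 in young mice and -1.52, -1.34, -1.49, -1.54 and -1.53 in old mice. The old values were close to each other while the young values were spread around them, with young mouse 3 below and the other 4 young mice above all old mice. The group means were -1.32 ± 0.23 and -1.49 ± 0.08, a difference of -0.17 that was smaller than the SD of the young group. Leaving out Mertk moved the difference to -0.28, larger in size than that SD of 0.23. The SD of the young group without Mertk was not computed.

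**Figure D4:**
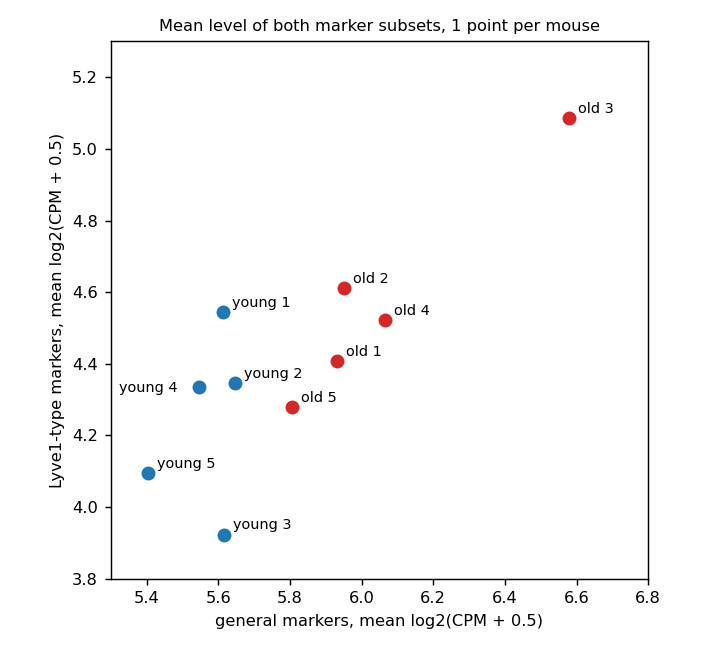
Mean log2(CPM + 0.5), with CPM after TMM scaling, of the 5 general markers (x axis) and of the 5 Lyve1-type markers (y axis), 1 point per mouse, young in blue and old in red. All old mice lie to the right of all young mice, whereas on the y axis the ages overlap and old mouse 3 stands alone at the upper right.

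The levels of single markers relative to Cd68 in the same library were examined after the values above had been seen and are given without a test. Lyve1 was at 3.13 to 6.22 times the Cd68 count in young mice (median 5.01) and at 2.24 to 3.46 times in old mice (median 2.44), and Timd4 was at 0.158 to 0.368 and 0.123 to 0.242 times. The ratio of Mrc1 to Cd68 was 6.13 to 7.31 in young and 5.26 to 6.28 in old mice. The median ratios of Folr2 and Cd163 were 1.96 and 4.53 in young and 1.40 and 3.83 in old mice. Those of the general markers were likewise lower in old mice. They were 8.48 and 6.14 for Csf1r, 22.2 and 18.8 for Lyz2, 25.1 and 13.7 for Mertk and 2.01 and 1.91 for Adgre1. All 9 medians were thus lower, and this was not particular to the Lyve1-type markers. Cd68 had the largest log2 fold change of the markers (0.83, followed by Adgre1 at 0.80). Choosing it as the divisor therefore lowers the ratios in old mice, and a lower ratio does not show a fall of the other marker. The ranges of all 9 ratios overlapped between the ages.

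The genes whose levels most resembled the mean of the 10 markers over the 10 mice, after removal of the group means, were the complement genes C1qa (r = 0.97, rho = 0.96) and C1qc (0.96 and 0.93), the coagulation factor gene F13a1 (0.96 and 0.94), Gimap3 (0.96 and 0.93) and Adap2 (0.94 and 0.89). Without old mouse 3 the r values were 0.90, 0.86, 0.91, 0.87 and 0.64 in the same order. These genes were ranked out of all tested genes on the same 10 libraries, which makes high values likely for the first of them, and no p is given. All 5 were higher in old aortae, among them C1qa (993 ± 146 to 1585 ± 466 normalized counts, log2 fold change 0.68, edgeR adjusted p = 0.0309) and F13a1 (1946 ± 251 to 2995 ± 737, log2 fold change 0.63, edgeR adjusted p = 0.0197). The calls of C1qa and C1qc were lost without old mouse 2 (edgeR adjusted p = 0.0517 and 0.0634) or without any 1 of young mice 2 to 5 (0.0645 to 0.0837), with the replicate block (0.0569 and 0.0633) and with no low-count filter (0.0967 and 0.112), that of F13a1 with no low-count filter (edgeR adjusted p = 0.0660), and that of Gimap3 without young mouse 5 (edgeR adjusted p = 0.0518).

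Of 20 further genes that macrophages share, 12 were called higher in old aortae and 0 lower, beside 6.48% and 4.99% of all tested genes. The median log2 fold change of the list was 0.77. The same shares of all tested genes apply to the lists that follow, all chosen with earlier results of these data known. Ctss, which encodes the lysosomal protease cathepsin S, rose from 303 ± 37.7 to 595 ± 184 normalized counts (log2 fold change 0.98, edgeR adjusted p = 0.00583), and Pld4, a lysosomal nuclease, rose from 222 ± 36.5 to 418 ± 127 (0.92, edgeR adjusted p = 0.00847). C1qa, C1qb, C1qc, Tyrobp, Fcer1g, Fcgr1, Aif1, Laptm5, Msr1 and Ms4a7 were the other 10. The abundant lysosomal protease gene Lgmn, which many cell types express, had a log2 fold change of 0.05 and was not called. The count was 10 without old mouse 3, 7 without old mouse 2, 6 without young mouse 2 and 5 without young mouse 4 or young mouse 5, with 0 called lower each time. The summed normalized count of the list was 9632 to 10830 in young mice, 11630 to 12803 in 4 old mice and 19786 in old mouse 3.

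Of 20 other genes described in resident macrophages, 19 were tested, 9 were called higher and 0 lower, and the median was 0.58. The C-type lectin gene Cd209b was at 34.8, 16.1, 37.9, 19.3 and 26.6 normalized counts in young mice and 115, 143, 103, 123 and 124 in old mice. As for Mertk, old mouse 3 was here the lowest of the old group, but it was still far above every young mouse (log2 fold change 2.18, edgeR adjusted p = 6.75e-05). Cd209f rose from 88.9 ± 26.5 to 276 ± 48.7 (1.64, edgeR adjusted p = 0.000241). The other 7 were Siglec1, Vsig4, Clec10a, Cd209d, Cd209g, F13a1 and Clec4n, and 8 were called higher without old mouse 3. Of the 19, 17 had a positive log2 fold change. The negative ones were the abundant Cbr2 (7813 ± 410 to 6733 ± 552, -0.21, edgeR adjusted p = 0.0647) and Stab1 (3247 ± 430 to 2594 ± 504, -0.32, edgeR adjusted p = 0.142). Cd209f and Cd209g share 29.8% and 16.6% of their 50-base windows, mainly with each other, so that their values are not fully separate.

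Growth factors and transcription factors of macrophages were examined next, since Csf1r depends on its ligands and several of the 10 markers are known targets of PU.1. Of 13 genes, 12 were tested and 4 were called higher, with a median log2 fold change of 0.43. Spi1, which encodes PU.1, rose from 89.0 ± 25.3 to 157 ± 40.1 normalized counts (log2 fold change 0.83, edgeR adjusted p = 0.0244), with old mouse 1 at 113 within the young range of 59.4 to 118. That call was lost without young mouse 2, 4 or 5 or old mouse 3 or 5 (log2 fold changes 0.66 to 0.83, edgeR adjusted p 0.0509 to 0.0657). Runx1 rose from 109 ± 8.32 to 182 ± 25.2 (0.74, edgeR adjusted p = 0.00170), Maf, a factor of resident macrophages, rose from 797 ± 57.2 to 1086 ± 102 (0.46, edgeR adjusted p = 0.00191), and Csf2ra was the other. The ligand Csf1 was at 2344 ± 173 and 2477 ± 107 (0.09, edgeR adjusted p = 0.383) and Il34 at 29.5 ± 11.3 and 38.7 ± 8.505 (0.40, edgeR adjusted p = 0.363). Without old mouse 3, 3 of the 12 were called.

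Genes of apoptotic cell uptake, the process in which Mertk and Timd4 act, did not move in 1 direction. Of 20 genes, 18 were tested, 3 were called higher (Ucp2, Dock2 and Rac2) and 2 lower (Tyro3 and Itgb3), and the median log2 fold change was -0.02. Tyro3, a receptor of the same family as Mertk, fell from 332 ± 48.0 to 234 ± 9.90 normalized counts (log2 fold change -0.50, edgeR adjusted p = 0.00574). Axl, the third receptor of that family, was at 14008 ± 865 and 15133 ± 601 (0.12, edgeR adjusted p = 0.231), and their ligand Gas6 was at 15191 ± 594 and 15812 ± 1848 (0.07, edgeR adjusted p = 0.640).

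Genes for the uptake and breakdown of hemoglobin and for iron storage, the pathway of Cd163, were called in both directions. Of 11 genes, 10 were tested, 5 were called higher and 1 lower, and the median was 0.36. Ftl1, the light chain of ferritin, rose from 5301 ± 308 to 7329 ± 896 normalized counts (log2 fold change 0.48, edgeR adjusted p = 0.00282), and Fth1, the heavy chain, rose from 60486 ± 1802 to 75090 ± 4083 (0.32, edgeR adjusted p = 0.00619). Hmox1, Slc40a1 and Tfrc were the others that rose, and all 5 are expressed by many cell types. Haptoglobin (Hp) fell from 1848 ± 1188 to 621 ± 254 (-1.57, edgeR adjusted p = 0.0461), but was called in only 8 of 19 alternatives, and the call was lost without young mouse 2 or 4 or old mouse 1, 3, 4 or 5 (edgeR adjusted p 0.0718 to 0.102). The number called higher was 3 without young mouse 2 or old mouse 5. Ftl1 shares 58.4% of its windows with a pseudogene. In the folate list, the pathway of Folr2, neither of the 2 tested genes was called, and Slc19a1 was at 129 ± 22.7 and 140 ± 14.1.

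Genes of lipid-laden macrophages, a state known from diseased arteries, were mostly not called. Of 13 genes, 2 were called higher and 0 lower, with a median of 0.27, and 9 had a positive log2 fold change. The number called lower was 2 with DESeq2, with quality weights or without young mouse 1. The number called higher was 4 with the replicate block or without young mouse 3. Fabp5 was at 185 ± 78.3 normalized counts in young and 109 ± 13.4 in old mice (log2 fold change -0.75, edgeR adjusted p = 0.0509). Trem2, a lipid-sensing receptor, rose from 39.3 ± 16.1 to 106 ± 46.4 normalized counts (log2 fold change 1.44, edgeR adjusted p = 0.0148), and Gpnmb rose from 1123 ± 177 to 1656 ± 155 (0.57, edgeR adjusted p = 0.00350). Spp1, singled out after its values were seen, was at 44.0 to 301 in young mice, at 242 to 410 in 4 old mice and at 2383 in old mouse 3 (2.89, edgeR adjusted p = 0.0690).

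**Figure D5:**
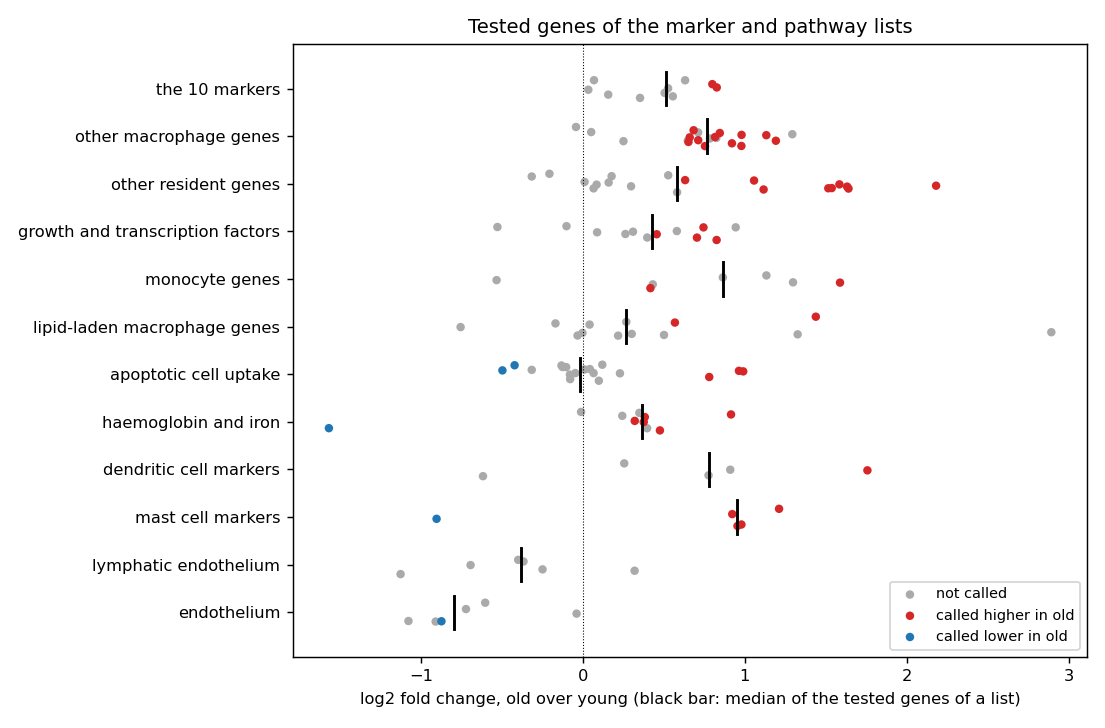
Log2 fold change, old over young, of each tested gene of 12 lists, 1 point per gene, red where called higher and blue where called lower (edgeR adjusted p below 0.05), gray otherwise, with a black bar at the median of each list. The medians of the 10 markers (0.52), the other macrophage genes (0.77) and the other resident genes (0.58) lie to the right of 0, that of apoptotic cell uptake (-0.02) lies near 0, and those of lymphatic (-0.38) and other endothelium (-0.80) lie to the left.

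Several markers are not exclusive to resident macrophages, and lists for the other cells were read beside them. Of 7 lymphatic endothelial genes, 6 were tested and none was called in either direction by edgeR, with a median log2 fold change of -0.38 against 0.07 for Lyve1. Their sum, of which Itga9 made up 93.6%, was 18609 to 25815 in young and 15901 to 20973 in old mice, and Ccl21a was at 0 in all libraries. Without young mouse 1, edgeR called 1 lymphatic gene higher and 1 lower (Itga9, log2 fold change -0.33, edgeR adjusted p = 0.0310). Limma-voom with quality weights also called Itga9 lower (-0.30, adjusted p = 0.0488). In old mouse 3, where Lyve1 had its highest value of the 10 mice, Prox1 (20.5), Flt4 (197), Reln (118) and Mmrn1 (222), singled out after their values were seen, were at their lowest and Pdpn was at its highest (516, against at most 434 in the other mice). Of 6 markers of endothelium in general, Tek was called lower (1749 ± 482 and 950 ± 274, log2 fold change -0.87, edgeR adjusted p = 0.0381), a call that was lost without young mouse 1, 3 or 5 or old mouse 1, 3 or 5 (edgeR adjusted p 0.0582 to 0.0859), while 5 of the 6 were called lower without old mouse 2. DESeq2 and limma-voom with quality weights each called 4 of the 6 lower and limma-voom 3, while 0 were called lower with the replicate block or with no low-count filter. The number with a positive log2 fold change was 0 of 6. The sum of these 6 markers was 18260 to 31914 in young and 9115 to 21144 in old mice, lowest in old mouse 3.

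Markers of monocytes and neutrophils were read as well. Of 12 monocyte genes, 7 were tested, and 2 (Itgal and Vcan) were called higher, with a median of 0.86, a count that was 0 without young mouse 2 or 4 or old mouse 3 or 4 and 1 without young mouse 3 or 5 or old mouse 1 or 2. Their sum was 123272 to 171705 in young and 130753 to 247867 in old mice, but Fn1, which is made by many cells of the vessel wall, was 95.1% of it, and the defining gene Ly6c2 was at 0.99 ± 1.39 and 7.02 ± 6.71 normalized counts. Ccr2, the chemokine receptor of classical monocytes, was at 55.0 ± 48.9 and 119.96 ± 54.3 (log2 fold change 1.13, edgeR adjusted p = 0.202), and Plac8 was at 51.8 ± 28.6 and 127 ± 80.8 (1.30, edgeR adjusted p = 0.0948). Of 10 neutrophil markers, which bear on Lyz2, 1 was tested, and Csf3r rose from 23.5 ± 8.43 to 56.1 ± 15.2 (log2 fold change 1.26, edgeR adjusted p = 0.00845). The sum of the neutrophil markers was 31.2 to 47.0 in young mice and 55.9 to 197 in old mice, highest in old mouse 2. The part of monocytes and neutrophils in the values of Lyz2 was not tested.

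Markers of other immune cells also differed between the ages. Of 5 tested dendritic cell markers, Cd209a rose (25.8 ± 9.85 to 87.1 ± 15.0, log2 fold change 1.76, edgeR adjusted p = 0.000756). The sum of the dendritic cell list, of which Zbtb46 made up 73.6%, was 488 to 866 in young and 742 to 802 in old mice. Of 3 tested T cell markers, Cd4 (8.22 ± 3.23 to 31.9 ± 11.0, 1.95, edgeR adjusted p = 0.00269) and Cd3g were called higher, and their summed level was 13.1 to 61.3 in young and 44.0 to 178 in old mice, highest in old mouse 3. The B cell sum, of which Ighm made up 86.4%, was likewise highest in old mouse 3 (1588, against 197 to 651 in young mice), although none of the 4 tested genes was called. Of 5 tested mast cell markers, 4 were called higher and Kit was called lower, with sums of 560 to 1165 in young and 661 to 913 in old mice, of which Kit made up 62.8%. The call of Kit held without young mouse 2 or old mouse 1 and was lost without any other mouse, and the number called higher was 1 without young mouse 2 or old mouse 4 and 2 without young mouse 5 or old mouse 3. Adipocyte markers, which bear on fat left on the vessel, had the lowest median of the lists, -1.02 with 5 of 6 genes negative, and none was called by edgeR, while DESeq2 called 2 and limma-voom with quality weights 1 of them lower. Their sum, of which Cfd made up 65.0%, was 6266 to 24188 in young and 2855 to 8806 in old mice. The part of these cell types in the marker results was not tested.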

How the data were processed

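Aortae were taken from saline-perfused mice and cleared of the surrounding fat, and stranded poly(A) libraries were made from total RNA. The authors trimmed reads with fastp 0.20.0, dropped those under 35 bases, aligned them with STAR 2.7.0f and counted them per gene with featureCounts of Subread 1.6.4. The deposited counts are whole numbers without normalization. The strand setting and the treatment of reads with several alignments are not given in the sources used here.

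Counts were compared between 5 old and 5 young mice with edgeR 4.0.16 in R 4.3.3 (TMM scaling, filterByExpr with a minimum count of 10 and a minimum total of 15, robust quasi-likelihood F test, no covariates). P-values were adjusted by Benjamini-Hochberg over the 14614 genes that passed, of 28011 with a count. Normalized counts are counts divided by DESeq2 size factors. DESeq2 1.42.0, limma 3.58.1, other scalings and filters, a replicate block and leaving out each mouse were alternatives. The subset comparison and the correlations with the mean marker level used log2(CPM + 0.5), with CPM after TMM scaling of the genes that passed the filter. The other CPM values are counts scaled to a common library total, without TMM. Lengths, positions and shared sequence came from GENCODE M21 on GRCm38, with M22 not used here.

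The members and gene lists were chosen with earlier results of these data known. Named genes were the 10 members, the 5 genes most like their mean, and of each list up to 2 called higher and 2 called lower by smallest p, or the most abundant gene if none was called. Every other gene given with values (Acta2, Lgmn, Spi1, Csf1, Il34, Axl, Gas6, Spp1, Fabp5, Cbr2, Stab1, Prox1, Flt4, Reln, Mmrn1, Pdpn, Ly6c2, Ccr2 and Plac8) was chosen after its values were seen, and other names complete a count. Lists of smooth muscle, fibroblast and red blood cell markers were also read. Of these, 6 smooth muscle genes and 5 tested red blood cell genes gave no edgeR call (median log2 fold changes -0.11 and -0.0029), and of 6 fibroblast genes Lum was called higher and Pi16 lower. Replicate pairs within a group differed beyond counting noise (chi-square per degree of freedom 8.06 to 58.8 over 20 pairs), and the scripts were tested on simulated data.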

Additional observations from a re-analysis of the deposited data

Results flagged for a closer look

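The normalized count of Csf1r in old mouse 3 was 3203, while the nearest other old mouse was at 1936, a gap of 0.766 of the range of the group and above the critical value of 0.71 for 5 samples. The difference between the Lyve1-type and the general markers was -1.34 in old mouse 2, while the nearest other old mouse was at -1.49, a gap of 0.761 of the range. These 2 were found among 22 groups of 5 values examined, and chance alone marks about 1 in 20 such groups.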

How the results depend on the processing

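The number of the 10 markers called higher (2 by edgeR) was 5 with DESeq2, 1 without the low-count filter and 0 at an adjusted p below 0.01, where 6 had an unadjusted p below 0.05, and it ranged from 1 to 3 when 1 mouse was left out. Cd68 was called in all 19 alternatives that kept the threshold of 0.05 and Adgre1 in 15 of them, and Mrc1, which the main test did not call, in 4. The log2 fold change of Lyve1 turned to -0.088 with quality weights, -0.02 without young mouse 3 and -0.044 without old mouse 3, and leaving out 1 mouse gave at most 0.16. That of Timd4 turned to -0.02 without young mouse 5 and -0.13 without old mouse 3, with 0.43 at most (without young mouse 1). That of Mertk turned to -0.053 with quality weights, -0.086 without young mouse 1, -0.03 without young mouse 3 and -0.05 without old mouse 1, with 0.12 at most (without young mouse 2).

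Over all genes, 395 were called higher and 263 lower at an adjusted p below 0.01, against 947 and 729 at 0.05. With quality weights 1182 were called lower, and leaving out 1 mouse gave 474 (without young mouse 4) to 1139 (without young mouse 1). In the list of other resident genes DESeq2 and quality weights each called 1 gene lower, against 0, and leaving out 1 mouse gave 0 to 2. In the list of shared macrophage genes leaving out 1 mouse gave 5 to 12 called higher, against 12. The cause of these changes was not tested. Upper-quartile scaling and library size alone moved the median log2 fold change of all genes to 0.03 and left Cd68 and Adgre1 as the called markers. Among genes that are no markers, Lgmn turned to -0.0060 with quality weights and -0.057 without old mouse 3, and Gas6 to -0.0075 without old mouse 3 (highest with 1 mouse left out 0.085 for Lgmn and 0.098 for Gas6). The runs on these genes and on lists with 1 mouse left out were added after seeing the data. The difference between the marker subsets ranged from -0.11 to -0.26 when 1 mouse was left out.

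With the replicate number as a block, 467 genes were called lower, 1261 were called in all, and Lyz2 joined Cd68 and Adgre1 (log2 fold change 0.51, edgeR adjusted p = 0.0262). Old and young mice with the same number share only that number: the correlations of their deviations from the group means were -0.32, -0.10, 0.09, -0.05 and 0.13 and 2 of 10 libraries correlated best with their own number. Counts were lowest for Timd4, with 22 to 95 per library, and the part of depth in its spread was not tested.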
